A study of Mus musculus with 8 samples.

Results

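The 9 genes described here encode the scaffold of the muscle sarcomere: the giant proteins titin (Ttn) and nebulin (Neb), the M-line myomesins (Myom1, Myom2 and Myom3), the titin cap (Tcap), filamin C (Flnc), desmin (Des) and the Xin repeat protein Xirp1. They were chosen by name from the 24341 genes listed, with earlier results of these data known. All 9 had a valid estimate in all 8 libraries and all 9 passed the filter on low values, among 11096 genes that did. None of the 9 differed between Carm1 knockout and control muscle at an adjusted p under 0.05, while 40 of the 11096 genes did.

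The sarcomere is the repeating contractile unit of striated muscle. Titin spans from the Z-disc at its edge to the M-line at its centre and acts as a molecular spring, nebulin lies along the thin filament and bears on its length, and the myomesins cross-link thick filaments at the M-line. The titin cap binds the Z-disc end of titin, filamin C and Xirp1 are actin-associated proteins of Z-discs and attachment sites, and desmin filaments tie neighbouring Z-discs to each other and to the cell membrane.

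RNA was sequenced from the tibialis anterior, a muscle at the front of the shin made up mainly of fast-twitch fibres, of 8 chow-fed mice aged 12 weeks and described as male, 4 per group. All 8 mice carried floxed Carm1, which encodes an arginine methyltransferase. The 4 knockouts (Carm1 skm-/-) also carried 1 copy of the HSAcre transgene (Tg/0), whose Cre recombinase is driven by the human skeletal actin promoter in muscle fibres, and the 4 controls (Carm1 skm+/+) carried none (0/0). Cre and loss of Carm1 therefore cannot be told apart, and cells other than muscle fibres in the tissue keep Carm1. The comparison asks how muscle RNA differs without Carm1 in fibres.

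Levels are FPKM (fragments counted per kilobase of transcript and scaled to the mapped fragments of the library), divided by a factor per library that lay between 0.904 and 1.07 and called scaled FPKM below. They allow comparison between genes because they are per length. Read counts are not given. Judged by how finely their lowest values are spaced, the libraries had from 81.2% to 100% of the depth of the deepest. Carm1 stood between 27.1 and 37.4 scaled FPKM in controls and between 12.7 and 18.0 in knockouts, 50.6% of the control mean (2-sided exact permutation p = 0.0286, n = 4 each, the smallest that 70 assignments can give). Control 1, knockout 2 and knockout 4 contained Xist, the RNA of the female inactive X chromosome, at 19.6 to 22.9 FPKM, against at most 0.0662 FPKM in the other 5 libraries. These 3 also had Myh2, the type IIa myosin heavy chain, at 782 to 1442 scaled FPKM against 119 to 173 in the other 5. Among markers of the fibres themselves, parvalbumin (Pvalb) stood between 7697 and 18666 scaled FPKM, while Acta1, Ckm, Atp2a1 and Tnnt3 had failed estimates in at least 1 library and could not be summed. Of the 4 heart markers Nppa, Myl7 and Tnni3 were below 1 scaled FPKM in every library, with Myl7 at 0. The other, Myh6, the alpha myosin heavy chain of the heart, stood between 0.689 and 1.52 scaled FPKM in controls and between 1.55 and 2.14 in knockouts. It was low in both groups. The ranges came close without overlap, and 8.31% of all genes tested had no overlap.

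Expression of the 9 genes covered a wide range. Tcap was highest at 7740.0 ± 1218 scaled FPKM (mean ± SD over all 8 libraries), followed by Des at 1127.0 ± 148, Myom2 at 306 ± 52.0, Myom1 at 267 ± 44.6, Neb at 207 ± 32.8, Ttn at 121 ± 14.6, Flnc at 74.8 ± 12.1, Xirp1 at 33.3 ± 12.6 and Myom3 at 6.17 ± 3.90. The ranges of neighbours in this order were apart over the 8 libraries for Tcap and Des, Des and Myom2, Neb and Ttn, Ttn and Flnc, and Xirp1 and Myom3. They overlapped for Myom2 and Myom1, for Myom1 and Neb, and for Flnc and Xirp1. Within a library, Myom2 exceeded Myom1 and Flnc exceeded Xirp1 in 8 of 8, and Myom1 exceeded Neb in 6 of 8. Tcap alone made up 1.19% of the summed FPKM of a library on average, and Ttn 0.0186%. Failed estimates enter that sum as 0, for Acta1 and Ckm in 4 libraries each, so these shares are overstated.

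**Figure D1:**
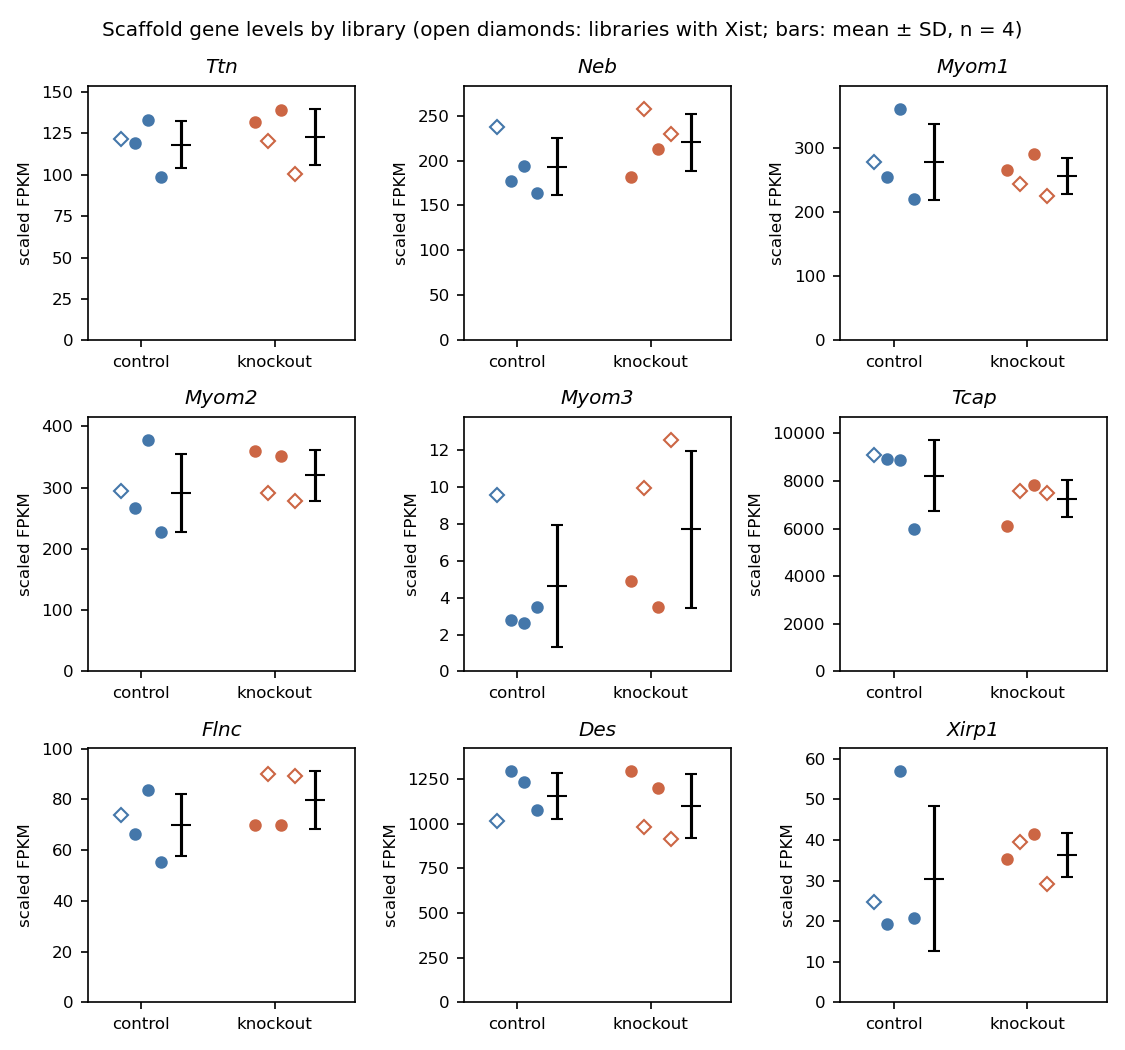
Levels of the 9 scaffold genes in scaled FPKM (vertical axes from 0) in 4 control and 4 knockout libraries; each point is 1 library, open diamonds are the 3 libraries with Xist, and bars are the mean ± SD. The groups overlap for every gene, and the open diamonds lie above all filled points for Neb and Myom3 and below them for Des.

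The genotype differences of the 9 genes ran from a log2 difference of -0.17 for Tcap to 0.64 for Myom3. For Myom3 and Xirp1 the limma intervals of the fold were wide, from 0.790 to 3.08 and from 0.800 to 2.11. Lack of a significant difference in these genes therefore does not show that the difference was small. Of the 9 genes 6 were higher and 3 lower in the knockout by log2 difference, with a median of 0.15, beside 5492 of 11096 genes higher (49.5%) and a median of -0.0021 over all genes tested. None passed limma with Benjamini-Hochberg adjustment, against 0.36% of all genes tested, and none had an unadjusted p under 0.05, which 13.1% of all genes had. Their adjusted p-values lay between 0.569 and 0.895. The control and knockout values overlapped for all 9, while 8.31% of all genes tested had no overlap.

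**Figure D2:**
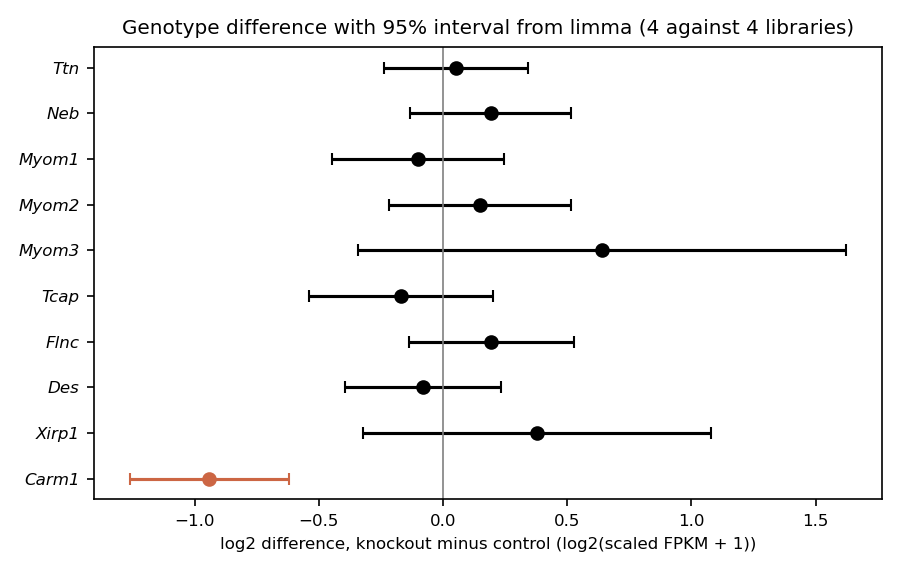
Log2 difference of each scaffold gene and of Carm1, knockout minus control, on the log2(scaled FPKM + 1) scale (horizontal axis), with 95% intervals from limma over 4 against 4 libraries. The intervals of all 9 scaffold genes include 0, and that of Carm1 runs from -1.26 to -0.62.

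Titin, the largest of the encoded proteins, had nearly the same mean level in both groups. Ttn lies on chromosome 2 from 76703984 to 76982547 (mm10), and its longest annotated transcript has 106824 bases in 347 exons. Controls 1 to 4 stood at 122, 119, 133 and 98.8 scaled FPKM and knockouts 1 to 4 at 132, 120.5, 139 and 100.4. The lowest and the highest library of each group lay close to those of the other. The fold change was 1.04 with a 95% interval from 0.848 to 1.27 (limma, log2 difference 0.05, SE 0.13, adjusted p = 0.895).

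Nebulin lies on the same chromosome from 52136647 to 52338798, with a longest transcript of 22489 bases in 157 exons, and overlaps the listed gene 4930573O16Rik, with which reads could be shared. Controls stood at 237, 177, 194 and 164 scaled FPKM and knockouts at 182, 257, 213 and 229.96. The 3 highest libraries were knockout 2, control 1 and knockout 4, those with Xist. The genotype fold was 1.14 with an interval from 0.913 to 1.43 (limma, adjusted p = 0.616). Long transcripts did not have the same standing in all libraries: in 234 tested genes with a longest transcript of at least 10000 bases, the median log2 deviation from the mean of 8 libraries ran from -0.11 in control 3 to 0.13 in knockout 2, and the median genotype difference was 0.07, with 163 of 234 higher in the knockout. With a trend on transcript length removed from each library, the genotype difference of Ttn was -0.077 and that of Neb 0.10 on the log2 scale, against 0.05 and 0.19 without removal.

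Tcap, a short gene of 2 exons on chromosome 11 (98383811 to 98384953) with a transcript of 948 bases, encodes the protein that caps the Z-disc end of titin. Controls stood at 9109.8, 8916, 8895 and 6004 scaled FPKM and knockouts at 6099, 7564, 7816 and 7516. Control 4 and knockout 1 were low, all 4 knockouts were below the control mean, and the groups overlapped through control 4. The fold was 0.889 with an interval from 0.688 to 1.15 (limma, adjusted p = 0.716), and the direction turned under quantile normalization, to a log2 difference of 0.084.

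Ratios within a library do not depend on the scaling between libraries, and 4 of them were tested. Between genes of unlike length, as Tcap and Ttn or Neb and Ttn, they still depend on a length trend that differs between libraries. Removal of that trend was not run for the ratios. Neb to Ttn averaged 1.64 ± 0.228 over controls and 1.84 ± 0.445 over knockouts, and Tcap to Ttn averaged 69.3 ± 6.82 and 60.1 ± 12.0 (SD, n = 4 each). Their 2-sided exact permutation p-values were 0.486 and 0.257 (0.486 and 0.343 adjusted over the 4 ratios). The Neb to Ttn ratio lay between 1.95 and 2.29 in the 3 libraries with Xist and between 1.38 and 1.66 in the other 5. Without those 3 libraries its log2 genotype difference turned from 0.14 to -0.073.

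The myomesins differ in the fibres that use them: Myom1 is found in striated muscle in general, Myom2 (M-protein) mainly in fast fibres and Myom3 in slow and intermediate ones. Myom1 lies on chromosome 17 (71019557 to 71126856), Myom2 on chromosome 8 (15057653 to 15133419) and Myom3 on chromosome 4 (135759715 to 135815567). Their longest annotated transcripts are alike in size, at 5648, 5075 and 5575 bases.

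Sequences upstream of the transcript start given by the files are shown for Myom1, the common denominator of the myomesin ratios, and for Myom3 and Des, which lie at opposite ends of the pattern across libraries described further on. Each holds the 250 bases before the start, 5′ to 3′ on the gene's strand, from RefSeq (GRCm38.p6, the assembly of mm10), at chr17:71019307-71019556, chr4:135759465-135759714 and chr1:75360042-75360291, all on the plus strand. Capitals mark any match, on either strand, to the E-box CANNTG, the M-CAT element CATTCC, the MEF2 site or the CArG box.
Myom1: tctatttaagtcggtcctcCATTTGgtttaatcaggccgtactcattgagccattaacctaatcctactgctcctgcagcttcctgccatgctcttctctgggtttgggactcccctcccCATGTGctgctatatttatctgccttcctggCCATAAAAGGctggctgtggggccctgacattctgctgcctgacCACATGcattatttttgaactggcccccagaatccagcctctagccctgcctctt
Myom3: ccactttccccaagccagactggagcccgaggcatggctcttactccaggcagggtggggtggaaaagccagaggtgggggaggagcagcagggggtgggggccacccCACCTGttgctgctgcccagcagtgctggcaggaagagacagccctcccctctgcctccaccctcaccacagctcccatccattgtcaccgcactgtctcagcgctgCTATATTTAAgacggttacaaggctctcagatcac
Des: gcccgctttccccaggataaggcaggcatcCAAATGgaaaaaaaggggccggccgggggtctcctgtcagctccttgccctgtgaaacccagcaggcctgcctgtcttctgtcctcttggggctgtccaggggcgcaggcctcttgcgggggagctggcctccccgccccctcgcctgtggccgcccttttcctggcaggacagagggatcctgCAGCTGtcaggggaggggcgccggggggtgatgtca
Of the 32817 promoter windows of this length in the table, 66.2% held an E-box, 12.6% an M-CAT element, 2.92% a MEF2 site and 1.47% a CArG box. The Myom1 window held 3 E-boxes and 1 CArG box, the Myom3 window 1 E-box and 1 MEF2 site that begins 35 bases before the start, and the Des window 2 E-boxes. The windows of Ttn, with 1 E-box and 1 MEF2 site, and of Flnc, with no match to these letters, were the remaining entries, so that 5 of the 9 genes had one. Neb, Myom2, Tcap and Xirp1 had no entry. A match is a description of letters and not of binding.

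Myom1 and Myom2 followed each other closely from library to library. Myom1 stood at 277, 254, 359.9 and 220.3 scaled FPKM in controls and at 265, 244, 289 and 225 in knockouts. Myom2 stood at 295, 267, 378 and 227 in controls and at 359.8, 291, 352 and 278 in knockouts. Both genes were highest in control 3 and lowest in control 4, and neither separated the groups: the fold was 0.932 for Myom1 (interval 0.733 to 1.19, adjusted p = 0.828) and 1.11 for Myom2 (interval 0.860 to 1.43, adjusted p = 0.751, both from limma).

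The ratio of the 2 genes did separate the groups. Myom2 to Myom1 was 1.06, 1.05, 1.05 and 1.03 in controls 1 to 4 and 1.36, 1.19, 1.22 and 1.24 in knockouts 1 to 4. The lowest knockout was above the highest control, and the control values spanned a narrow range. The means were 1.05 ± 0.0136 in controls and 1.25 ± 0.0724 in knockouts (SD, n = 4 each), a log2 difference of 0.25 (SE 0.042). The 2-sided exact permutation p was 0.0286, the smallest that this design allows, and 0.114 adjusted over the 4 ratios. The 4 ratios were chosen with earlier results of these data known, and the adjustment does not account for that choice. The difference did not pass after adjustment. At this smallest p, 1 ratio alone cannot pass the adjustment over 4, whatever the size of its difference. Among the 5 libraries without Xist the log2 difference was 0.30, and without knockout 2 and knockout 4 it was 0.29. Knockout 2 and knockout 4 also stood above control 1, the control with Xist, at 1.19 and 1.24 against 1.06.

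The background of this separation can be counted. Of all 36 ratios among the 9 genes, Myom2 to Myom1 was the 1 with no overlap between the groups. Over all other genes tested, the ratio to Myom1 had no overlap in 3.82% and the ratio to Myom2 in 4.26%, so that a share of 1 in 36 is near the background, and the ratio is given as a measurement of these 8 libraries.

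**Figure D3:**
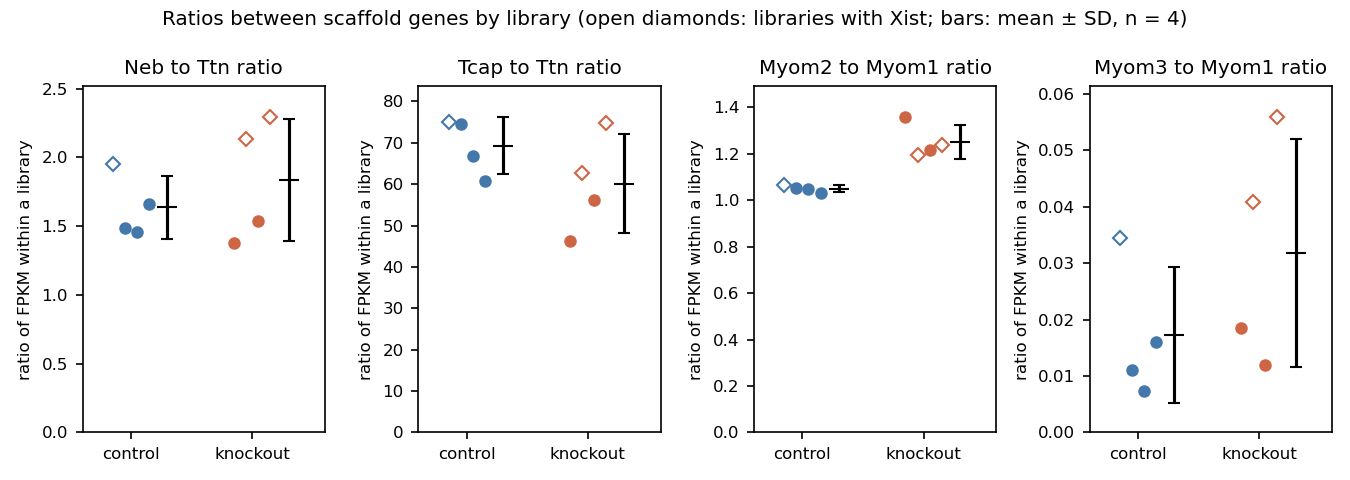
Ratios of FPKM between 2 scaffold genes within a library (vertical axes from 0), by genotype; points are libraries, open diamonds those with Xist, and bars the mean ± SD of 4 libraries. The Myom2 to Myom1 ratio is between 1.03 and 1.06 in controls and between 1.19 and 1.36 in knockouts, and the ratios with Neb or Myom3 as numerator are highest in the libraries with Xist.

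Myom3 was the least expressed and most variable of the 9. Controls stood at 9.56, 2.81, 2.63 and 3.51 scaled FPKM and knockouts at 4.89, 9.97, 3.47 and 12.5. Control 1, knockout 2 and knockout 4 were high and the other 5 low. The coefficient of variation over the 8 libraries was 63.1%, against 12.1% for Ttn. The genotype fold of 1.56 had an interval from 0.790 to 3.08 (limma, log2 difference 0.64, SE 0.43, adjusted p = 0.569). With presence of Xist as a covariate the log2 difference was 0.31 (limma, adjusted p = 0.239). In the 5 libraries without Xist it was 0.37 (limma, adjusted p = 0.427). Without knockout 2 and knockout 4 it was 0.02, but that set keeps control 1, the high control. Myom3 to Myom1 was 0.0172 ± 0.0121 in controls and 0.0318 ± 0.0202 in knockouts (SD, n = 4 each), with a 2-sided exact permutation p of 0.229 (0.343 adjusted over the 4 ratios).

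Filamin C, the muscle form of an actin cross-linking family, is encoded on chromosome 6 (29433153 to 29461888). Flnc stood at 73.9, 66.4, 83.8 and 55.3 scaled FPKM in controls and at 69.7, 89.9, 70.1 and 89.2 in knockouts. Knockout 2 and knockout 4 were above every other library, and the other 2 knockouts lay within the controls. The fold was 1.14 with an interval from 0.908 to 1.44 (limma, adjusted p = 0.623), and without knockout 2 and knockout 4 the log2 difference went from 0.19 to 0.02.

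Desmin is encoded on chromosome 1 (75360292 to 75375015), in a listed locus that overlaps Gm15179. Des stood at 1016, 1295, 1232 and 1077 scaled FPKM in controls and at 1293, 983, 1203 and 916 in knockouts. The 3 lowest libraries were knockout 4, knockout 2 and control 1. The fold was 0.947 with an interval from 0.761 to 1.18 (limma, adjusted p = 0.853), and the sign of the log2 difference of -0.08 changed in 6 of 20 alternative fits, among them those without scaling and with Xist as a covariate. Smooth muscle also makes desmin. The 4 smooth muscle markers Acta2, Myh11, Cnn1 and Tagln summed to between 143 and 254 scaled FPKM in controls and between 119 and 158 in knockouts, and to between 119 and 158 in the 3 libraries with Xist against 143 to 254 in the other 5. Their part in the level of Des was not tested. In whole muscle, fewer cells of a type and less RNA per cell cannot be told apart.

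Xirp1, on chromosome 9 (120013755 to 120023598) with 3 exons, encodes a Xin actin-binding repeat protein that is known from sites of muscle damage and remodelling. Controls stood at 24.7, 19.3, 56.9 and 20.7 scaled FPKM and knockouts at 35.4, 39.4, 41.3 and 29.0. Control 3 was the highest library and the other 3 controls were below every knockout. The fold of 1.30 had an interval from 0.800 to 2.11 (limma, log2 difference 0.38, SE 0.31, adjusted p = 0.657). Without control 3 the log2 difference was 0.72 with an adjusted p of 0.114, the smallest adjusted p that any of the 9 genes had in any alternative fit. The markers of satellite cells and regeneration (Pax7, Myod1, Myog, Myh3 and Myh8) summed to 63.5 in control 3, 26.0 to 33.0 in the other controls, and 55.4, 24.3, 47.0 and 26.1 in knockouts 1 to 4, with Pax7 below 1 scaled FPKM in every library. The sum hides members that went opposite ways. Myh8 lay between 4.82 and 12.1 in controls and between 0.914 and 1.58 in knockouts. Myh3 lay between 0.505 and 0.721 in controls and between 0.866 and 1.59 in knockouts. Neither overlapped between the groups, as did not 8.31% of all genes tested, while Pax7, Myod1 and Myog overlapped. The part of these markers in the level of Xirp1 was not tested.

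The difference between the libraries with and without Xist can be set beside that between the genotypes, both taken between means of log2(scaled FPKM + 1). For Neb, Myom3 and Flnc the first difference was 0.38, 1.40 and 0.29 and the second 0.19, 0.64 and 0.19. For Des, Myom1 and Ttn the first was -0.33, -0.15 and -0.12 and the second -0.08, -0.10 and 0.05. For Myom2, Tcap and Xirp1 the first was -0.11, 0.11 and -0.07 and the second 0.15, -0.17 and 0.38. The share of all genes tested with a larger first difference was not counted. Neb and Myom3 were higher in each of the 3 libraries with Xist than in each of the other 5, an arrangement that 11.4% of all genes tested showed, and Des was lower in each of the 3, which 9.37% showed. In mean scaled FPKM, Neb was 1.30 times, Myom3 3.09 times and Des 0.796 times as high in the 3 libraries as in the 5. Myh2 was 8.33 times as high. The slow fibre markers did not share 1 pattern: Myh7, the slow myosin heavy chain, was at 2.77 scaled FPKM with Xist and 0.648 without, a ratio of 4.27. Tnnt1, the slow troponin T, was at 20.2 and 20.8, a ratio of 0.972, but 1 library, knockout 1 at 56.4, set much of the mean without Xist. On the log2 scale its difference, with minus without Xist, was 0.33. Tnnt1 lay between 6.90 and 16.1 in controls and between 17.0 and 56.4 in knockouts, without overlap, as did 8.31% of all genes tested. The 6 slow fibre markers summed to between 122 and 322 scaled FPKM in the 3 libraries and between 45.4 and 146 in the 5, and these ranges overlap. No test is given for these samples, as they were set apart from the data and not by the study. As 1 of the 3 is a control and 2 are knockouts, they weigh unequally on the genotype comparison. With presence of Xist as a covariate 223 genes passed in limma (2.01% of those tested) and none of the 9. In that fit 1 of the 9, Myom3, had an unadjusted p under 0.05, which 18.6% of all genes tested had.

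**Figure D4:**
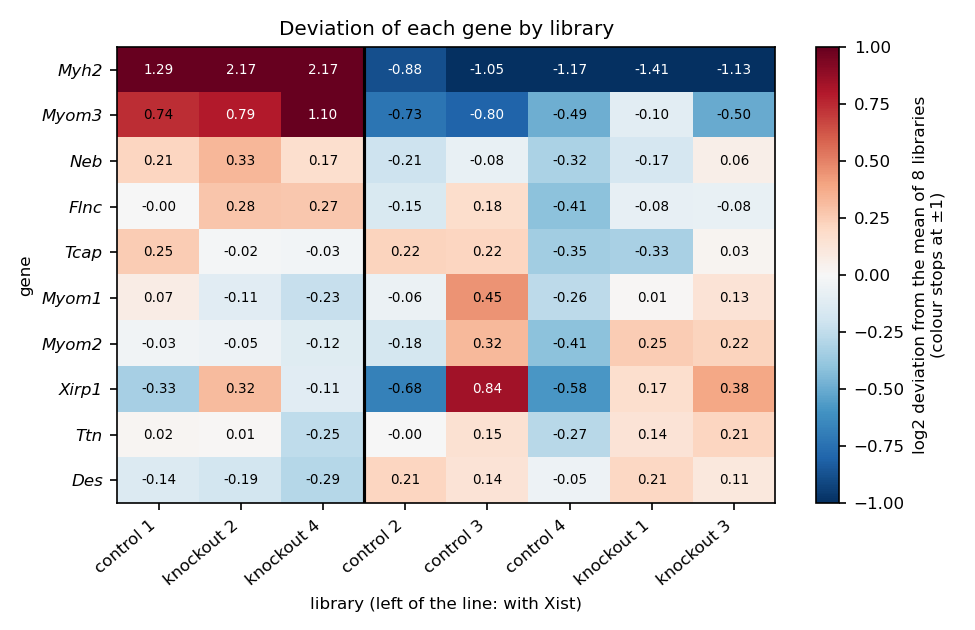
Log2 deviation of Myh2 and the 9 scaffold genes from each gene's mean over 8 libraries (colour and printed value), with genes in rows and libraries in columns; the 3 libraries with Xist stand left of the line. Myh2, Myom3 and Neb are above their mean in all 3, and Des is below its mean in all 3.

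Among themselves the 9 genes formed no common pattern over the 8 libraries. Pearson's r on the log2 scale was 0.87 between Ttn and Myom2, 0.84 between Myom2 and Xirp1, 0.82 between Myom1 and Myom2 and 0.80 between Ttn and Myom1. It was 0.79 between Neb and Myom3 and 0.78 between Neb and Flnc, while Neb and Ttn, the 2 giants, had an r of 0.11. Des and Myom3 stood at -0.86. With Myh2 the r was 0.93 for Myom3, 0.85 for Neb and -0.89 for Des. These are descriptions over 8 libraries that share scaling factors and genotype, and Myh2 itself separates the 3 libraries with Xist from the other 5.

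For each member the tested genes with the highest r over the 8 libraries were listed. The nearest to Ttn was Mau2 at 0.95, to Neb Atp6v1c1 at 0.98, to Myom1 Nars at 0.98 and to Myom2 Bola1 at 0.97. The nearest to Myom3 was Fam73a at 0.99, to Tcap Tmem161a at 0.92, to Flnc Nubp2 at 0.94, to Des Tgm2 at 0.98 and to Xirp1 Rpain at 0.95. The second places went to Las1l, Ppm1b, Oxld1, Khk, Scarb2, Atp5g2, Vimp, Atp9b and Rnmtl1 in the same order. As the best of 11087 genes outside the members, values this high are a description of 8 libraries.

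Partners of the scaffold were read from 5 lists of 62 genes, of which 60 were tested: Ldb3 did not have a valid estimate in every library and Nebl, at 0.155 FPKM or less, was below the filter. None of the 60 passed limma with Benjamini-Hochberg adjustment in either direction. By log2 difference 31 were higher and 29 lower, with a median of 0.01. An unadjusted p under 0.05 was found for 10 of 60 (16.7%), beside 13.1% of all genes tested, and no overlap between the groups for 4 of 60 (6.67%), beside 8.31%.

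Of 16 Z-disc partners 6 were higher and 10 lower, with a median of -0.08. Synpo2l, an actin-bundling protein of the Z-disc, had a mean of 43.5 ± 1.02 scaled FPKM in knockouts against 31.6 ± 3.25 in controls (SD, n = 4 each), a log2 difference of 0.46 (limma, adjusted p = 0.0697). All 4 knockouts, between 42.2 and 44.5, stood above all 4 controls, between 27.6 and 34.9. Palld, an actin-associated palladin, stood at -0.21 on the log2 scale (adjusted p = 0.382).

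Of 11 M-band and thick filament partners 5 were higher and 6 lower, with a median of -0.06. Obsl1, a cytoskeletal adaptor that binds titin and myomesin at the M-line, had a mean of 8.53 ± 0.996 scaled FPKM in knockouts against 13.8 ± 1.54 in controls (SD, n = 4 each), a log2 difference of -0.63 (limma, adjusted p = 0.0554). Knockouts lay between 7.05 and 9.19 and controls between 11.5 and 14.8, without overlap. With Xist as a covariate the adjusted p was 0.039 for Obsl1 and 0.0401 for Synpo2l, and in the 5 libraries without Xist it was 0.226 and 0.214.

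Of 10 thin filament and nebulin partners 5 were higher and 5 lower, with a median of 0.01. Tmod4, a tropomodulin that caps the pointed end of thin filaments, stood at -0.41 (limma, adjusted p = 0.230) with no overlap between the groups. Lmod3, the leiomodin that nucleates actin there, stood at -0.44 (limma, adjusted p = 0.277). For Lmod3 the adjusted p was 0.0431 with Xist as a covariate, a fit in which 2.01% of all genes tested passed. In the 5 libraries without Xist it was 0.248. In the list of titin spring and signalling partners 7 of 9 were higher, with a median of 0.26. Of these, Fhl1, Ankrd2, Cryab and Smpx were above the control mean in knockouts 2 and 4, which contain Xist, and below it in knockouts 1 and 3. Fhl1 stood at 607, 2773, 770 and 2473 in knockouts 1 to 4 against a control mean of 1172. Fhl2, Ankrd1 and Ankrd23 did not follow this pattern. The members of this list with the smallest p were Capn3, the muscle calpain anchored on titin, at -0.47 (limma, adjusted p = 0.126, no overlap), and Fhl2, a LIM protein, at 0.55 (adjusted p = 0.297).

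Of 14 partners of desmin, filamin and Xin 8 were higher and 6 lower, with a median of 0.06. Igfn1, a Z-disc protein of immunoglobulin and fibronectin repeats, had the largest log2 difference of the 60, 2.15 (SE 0.76, limma, adjusted p = 0.275). It stood at 107, 27.3, 6.18 and 11.4 scaled FPKM in knockouts 1 to 4 and at 2.71, 9.69, 3.18 and 3.24 in controls, so the groups overlapped and knockout 1 set most of the mean. Sync, the desmin-binding syncoilin, stood at 0.44 (adjusted p = 0.309). Xirp2, the second Xin repeat gene, had the same rounded mean in both groups, 164 ± 26.6 scaled FPKM in controls and 164 ± 19.5 in knockouts (SD, n = 4 each).

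**Figure D5:**
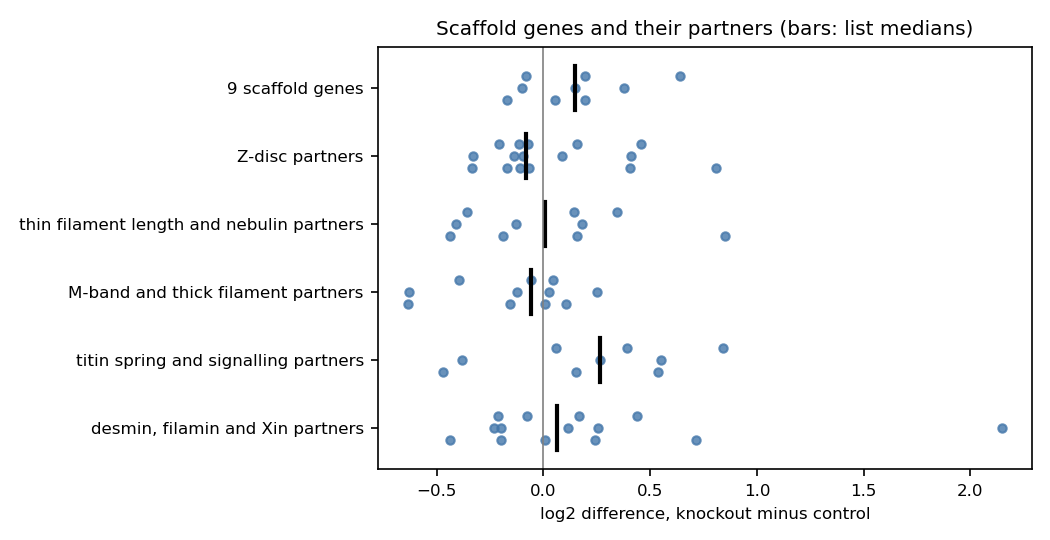
Log2 difference, knockout minus control (horizontal axis), of the 9 scaffold genes and of the tested genes in 5 partner lists; each point is a gene and bars are list medians. The medians lie between -0.08 and 0.26, and Igfn1 is the point at 2.15.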

How the data were processed

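FPKM were deposited by the authors as 1 Cufflinks gene table per library per the file headers. The submitters' processing notes name STAR, Cufflinks and the build mm10. Versions and the annotation are not given in the sources used here, and no counts are given. A median-of-ratios factor per library, from 10171 genes, was applied to the deposited FPKM, which were then analysed as log2(scaled FPKM + 1), a scale that compresses changes at low levels. Genes with status OK in all libraries and at least 1 scaled FPKM in at least 4 were tested with limma 3.58.1 in R 4.3.3 (eBayes with trend), Benjamini-Hochberg adjusted over all genes at a threshold of 0.05. On simulated data with 11096 genes it recovered 83.7% of genes with a log2 change of 1 and 41.6% at 0.5. Reads in overlapping genes are apportioned by estimation in Cufflinks, and the labels do not say that the kit marks strand.

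Ratios of FPKM and Carm1 were tested by exact permutation with scipy 1.17.1 in Python 3.11.15. The labels number the samples as biological replicates. File starts were raised by 1 to count from 1. Transcript lengths are the longest per gene in GENCODE M21 (96.4% of genes tested matched); the length trend was a loess of span 0.5. Named were the 9 members, Carm1, the 2 partners per list with the smallest p and the 2 genes most like each member (clone-type names skipped; 1 partner that meets the rule is not reported here); other genes were named, and the motifs searched were chosen, after values were seen. Members, lists, ratios and alternatives were chosen with earlier results of these data known. Alternatives were other pseudocounts, filters and scalings, array weights, robust eBayes, the replicate number as a block, each library left out in turn, Xist as a covariate, the 5 libraries without Xist, the 6 libraries with low-data genes, and the length trend removed.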

Additional observations from a re-analysis of the deposited data

Results flagged for a closer look

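In 3 of 28 groups of 4 values screened, 1 library lay far from the other 3 by Dixon's criterion for the gap over the range, which chance gives in about 1 in 20 groups. Myom3 in control 1 was at 9.56 scaled FPKM, above the other controls, and control 1 is the control with Xist. Tcap in control 4 was at 6004 scaled FPKM, below the other controls. Xirp1 in control 3 was at 56.9 scaled FPKM, above the other controls. The cause of these values was not tested.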

How the results depend on the processing

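None of the 9 scaffold genes passed in any of the 20 alternative fits, and 167 of 180 log2 differences kept their sign. The others were near 0. Without single libraries Ttn ranged from -0.030 to 0.15, Myom1 from -0.20 to 0.031 and Des from -0.16 to 0.0034. Ttn stood at -0.077 with the length trend removed. Myom1 was at 0.027 in the 5 libraries without Xist and at 0.020 without knockout 2 and knockout 4, the libraries with no low-data gene. Tcap was at 0.084 with quantile normalization. Des was at 0.0099 without scaling, 0.033 with quantile normalization, 0.0026 with Xist as a covariate, 0.058 without the Xist libraries and 0.12 without knockout 2 and knockout 4. The cause was not tested.

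The count of 40 genes became 3 with no filter (24318 genes tested), 15 at a mean of at least 5 scaled FPKM, 103 with array weights, 223 with Xist as a covariate, 3 in the 5 libraries without Xist, 13 without knockout 2 and knockout 4, and 2 to 27 without single libraries (fewest without control 4). Without scaling 36 genes were higher and 13 lower. With the replicate number as a block limma called 0 genes (1314 at an unadjusted p under 0.05), but the numbers did not pair the samples: deviations of same-numbered libraries correlated at -0.43, -0.19, 0.35 and 0.19.

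The Neb to Ttn difference was -0.073 without the Xist libraries and -0.16 without knockout 2 and knockout 4. The Myom2 to Myom1 difference was 0.30 and 0.29 there, 0.25 with the replicate block and 0.21 to 0.27 without single libraries, and that of Carm1 was -0.80, -0.75, -0.94 and -1.02 to -0.84. None of these can pass: fewer libraries or pairs allow no exact p below 0.0571. For the exact test of Carm1 the filters, robust eBayes and array weights were not run, as they do not enter it. Read depth is unknown and sets a limit that could not be computed, chiefly for Myom3.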
